A study of Mus musculus with 31 samples.

Results

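The stretch of mouse chromosome 9 described here, chr9:44290001-44470000 in build mm9, holds the gene Cxcr5 and runs from it towards Ddx6. It was selected on measured values of these same files: lower coverage by Rad21, a subunit of cohesin, in stimulated than in unstimulated splenic libraries at chr9:44370001-44400000, a block of 30 kb. Its members are the peaks of all 26 deposited peak lists that overlap the stretch of 180 kb by 1 or more bases. They number 2607 of 17061930 peaks, 1482 from NIPBL lists and 1125 from Rad21 lists. The position of Cxcr5, about 44319000 to 44335000, was given with that rule, since no mm9 annotation was used here. These are limits of coordinates and do not give the direction of transcription. In RefSeq's GRCm38.p6 annotation the order of the main genes is Bcl9l, Cxcr5, the long non-coding RNA LOC108167647 and Ddx6. No peak was assigned to Ddx6 itself. NIPBL and Rad21 peaks do not measure enhancer activity, so the 30 kb are called a block here and not an enhancer.

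Cxcr5 is the receptor for the chemokine CXCL13 and guides B cells into the follicles of lymphoid tissue. Ddx6 is an RNA helicase of cytoplasmic RNA granules that takes part in the repression and decay of messenger RNA. Cohesin, a ring that contains Rad21, is loaded with the help of NIPBL, extrudes loops of chromatin, and tends to stop and accumulate at sites bound by CTCF.

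The libraries are chromatin immunoprecipitations followed by sequencing, from AID-deficient mouse B cells of strain C57BL/6, so that controls and stimulated cells alike lack AID, the enzyme that starts class switching. Mature splenic B cells were used without stimulation (3 NIPBL and 3 Rad21 libraries) or after 48 h with anti-CD40 and IL-4 (3 and 3). CH12F3, a mouse B lymphoma line whose samples are titled CH12F3NCdel, was used without stimulation (2 NIPBL and 3 Rad21 libraries) or after 24 h with anti-CD40, IL-4 and TGF-β (2 and 4), and a CH12F3 derivative titled i3CBEs only after the latter (3 Rad21 libraries). The labels expand neither title. Nor do they state that replicates came from different animals or cultures, so the spread behind each p-value may be purely technical. The cell type field of the CH12F3 and i3CBEs Rad21 samples names splenic cells, against their titles and source names, which were followed.

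The lists held between 42659 and 1332862 peaks and no read counts, so their depth is unknown. To set lists of unequal length side by side, the 20000 peaks of highest -log10 p in each list were kept, called top peaks below, and coverage was measured in consecutive 10 kb bins along each chromosome. Each library gives a bin 1 value, the share of the bin under top peaks in percent. Stimulated splenic Rad21 replicate 2 stood apart from the other splenic Rad21 libraries, with 0.0103% of its peaks on chromosome Y against 0.0229% to 0.0434%. Its list of 1166191 peaks was among 3 long splenic Rad21 lists, whereas the other 3 held 149409, 152152 and 292078.

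Rad21 sites in the stretch were of contrasting kinds: narrow sites present in every library, and peaks in resting spleen of which the widest spanned several kb. After the top peaks of all libraries were merged wherever they touched, 33 sites remained. Of these, 9 held top peaks of both antibodies, 4 of Rad21 only and 20 of NIPBL only. The stretch held 100 top peaks of each antibody in all.

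**Figure D1:**
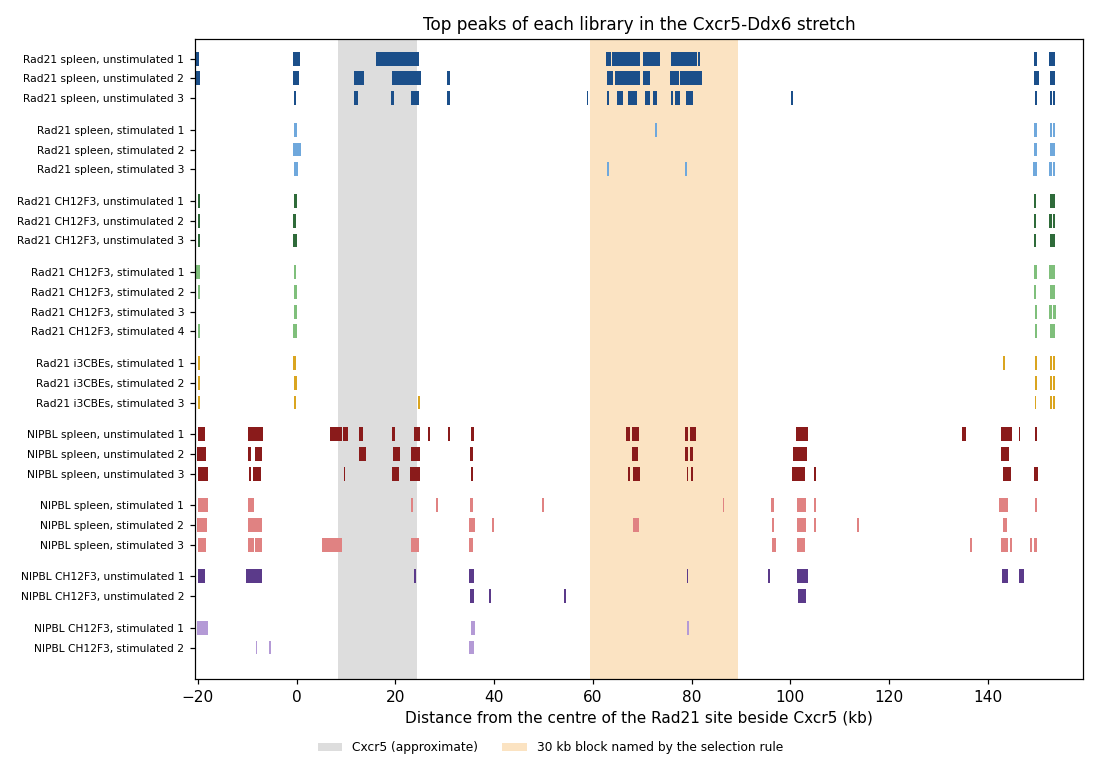
Top peaks of each of the 26 libraries along the stretch. The horizontal axis is the distance in kb from the centre of the Rad21 site beside Cxcr5, each row is a library, each bar a top peak (very short peaks are drawn wider so that they can be seen), and shading marks Cxcr5 and the 30 kb block. The 3 sites shared by all 16 Rad21 libraries form columns at the left and far right, and Rad21 bars lie over Cxcr5 and the block in the 3 unstimulated splenic libraries, shorter over Cxcr5 in replicate 3.

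Sites with a top peak in all 16 Rad21 libraries numbered 3. The first, at chr9:44309796-44311440, lay 7.559 kb below the lower coordinate of Cxcr5. The others, at chr9:44459848-44461009 and chr9:44462993-44464457, lay at the far end of the stretch, 1.983 kb from each other. The distance between the first site and the nearer of the far pair was 148.4 kb. The block lay close to the middle of this interval, 58.56 kb from the site beside Cxcr5 and 59.85 kb from the far pair. It lay 35 kb above the higher coordinate of Cxcr5.

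The site beside Cxcr5 was among the strongest in the genome in every Rad21 list. Fold enrichment, the authors' own ratio of a deposited peak to the caller's background, was 12.8 to 42.8 there. The rank of the site by -log10 p ran from 149 to 1352. Peaks differed in width, and the part of width in these values and ranks was not tested. In spleen the fold enrichment of the site was 35.8, 35.3 and 17.8 without stimulation and 12.8, 22.0 and 19.4 with it. These groups overlap. At the nearer far site the values were 27.7, 15.7 and 16.0 against 10.6, 28.7 and 15.7, and at the farther one 22.9, 22.8 and 11.2 against 8.03, 22.7 and 13.5. The groups overlap at both far sites too, so none of the 3 shared sites separated unstimulated from stimulated spleen. NIPBL had no top peak at the site beside Cxcr5 in any of its 10 libraries, nor at the farther far site, and had one in 4 libraries at the nearer far site, all of them splenic.

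**Figure D2:**
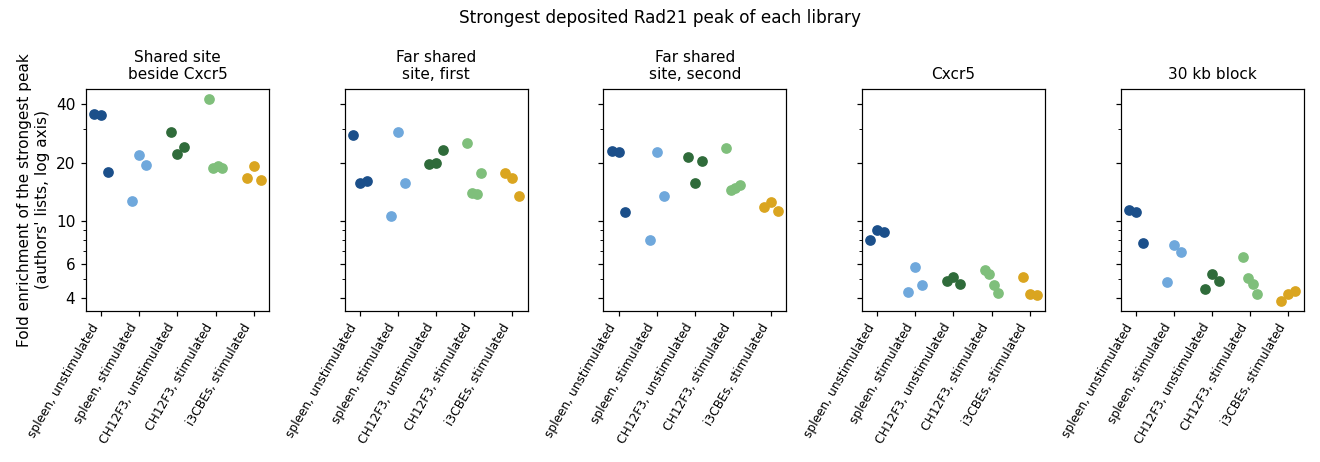
Fold enrichment of the strongest deposited Rad21 peak (log axis, as deposited by the authors) in each of 16 libraries, at the 3 shared sites, in Cxcr5 and in the 30 kb block. Each point is a library; at the shared sites the splenic groups overlap, whereas in Cxcr5 the 3 unstimulated splenic libraries, between 7.99 and 8.96, lie above the other 13.

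Over Cxcr5 itself, Rad21 top peaks were found in unstimulated spleen in all 3 libraries. The widest was a peak of 8756 bp in replicate 1 and of 5905 bp in replicate 2, whereas replicate 3 had peaks of 636, 738 and 1616 bp. In the bin at 44330001 unstimulated replicates 1, 2 and 3 had 54.6%, 58.2% and 19.6% of bases covered, and in the bin at 44320001 they had 33.0%, 20.9% and 10.3%. Every stimulated splenic library had 0 in both bins. Replicate 3 was the lowest of the unstimulated libraries throughout, and the groups did not overlap. These values come from the contrast by which the stretch was chosen, so they are a description with no test.

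In the 30 kb block, which the rule names for this very difference, Rad21 coverage by top peaks was 64.5%, 62.5% and 38.4% at 44370001 in the unstimulated replicates, against 0, 0 and 3.21% in the stimulated ones. At 44380001 it was 72.5%, 49.8% and 33.3% against 1.27%, 0 and 0.740%. At 44390001 it was 20.9%, 27.2% and 9.50% against 0 in all 3. Unstimulated libraries were high and stimulated ones at or near 0 in each of these bins, without overlap. Of 264200 genome bins, 16 had an unstimulated splenic Rad21 mean at least as high as that at 44370001 (55.1% ± 14.5, SD, n = 3). For 44380001 the count was 24, and for 44330001 in Cxcr5 it was 43. Each count includes the bin itself and any higher bin of the stretch. Of all bins, 22602 held values in enough splenic Rad21 libraries to be compared. The rule used these same libraries, so high counts of coverage here follow from the choice and are a description with no test.

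By top peaks the block had sharp edges. Just outside it, at 44360001 and 44400001, unstimulated splenic Rad21 covered 0.713% ± 1.24 and 0 (n = 3). With all deposited peaks the bin at 44400001 had 24.8%, 34.6% and 6.38%. The next bin, at 44410001, had a mean of 59.3% ± 25.1 by that measure and 1.18% ± 2.05 by top peaks. The 3 bins of the block had means of 58.2%, 62.1% and 33.1% with all deposited peaks, and the bin at 44360001 had 9.56% ± 5.42. By that measure Rad21 coverage thus continued past the higher coordinate of the block. At the ends of the whole stretch, the last bin before it, at 44280001, had 13.3% ± 3.27 in unstimulated splenic Rad21 and 13.2%, 25.9% and 3.67% in stimulated replicates 1, 2 and 3, and the first bin after it, at 44470001, had 0 in every group. Over all of the stretch, 5 of its 11 bins with values in 2 or more libraries were lower after stimulation without overlap (background 9.76% of all bins with such values) and none was higher (background 7.07%). Nothing is read from these counts, because the rule used this contrast. The median difference over those 11 bins was -5.24 percentage points, beside -0.20 over all such bins of the genome.

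The size of the difference depended on how many peaks of each list were counted. With all deposited peaks, mean coverage of the 3 bins of the block was 56.8%, 66.3% and 30.1% without stimulation and 8.82%, 55.0% and 29.6% with it. The groups then overlap, since stimulated replicate 2, the library that stands apart, was close to the unstimulated ones and unstimulated replicate 3 was close to stimulated replicate 3. Over the 2 bins that start in Cxcr5 the same measure gave 78.8%, 76.9% and 47.9% against 17.0%, 64.9% and 41.6%, again with overlap. The strongest Rad21 peak of the block had a fold enrichment of 11.4, 11.2 and 7.74 without stimulation and 4.84, 7.53 and 6.91 with it, which separates the groups by little. In stimulated replicate 2 that peak ranked 20280, just outside the top peaks. In Cxcr5 the strongest peak had 7.99, 8.96 and 8.78 against 4.32, 5.77 and 4.68, with a wider gap between the groups.

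The other end of the scale gave a different picture again. With only the 10000 top peaks of each list, coverage of the block was 0, 0 and 13.1% without stimulation and 0 in all 3 stimulated libraries, because the strongest peak of the block ranked 11549 and 10641 in unstimulated replicates 1 and 2 and 6834 in replicate 3. These strongest peaks were 996, 1240 and 519 bp wide in replicates 1, 2 and 3. The widest top peaks of the block, of 5690, 5123 and 1987 bp, ranked 14891, 12098 and 8692. Such ranks are middling only among the 20000 top peaks. The full lists held 292077, 1177388 and 152151 peaks on the main chromosomes. With 40000 top peaks coverage was 52.6%, 52.1% and 27.3% against 3.48%, 20.8% and 4.52%, without overlap. Whether the length of the lists, or stimulated replicate 2, sets the size of the difference was not tested. The mean difference over the block was -41.5 points with all 6 libraries and -41.2 without stimulated replicate 2.

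**Figure D3:**
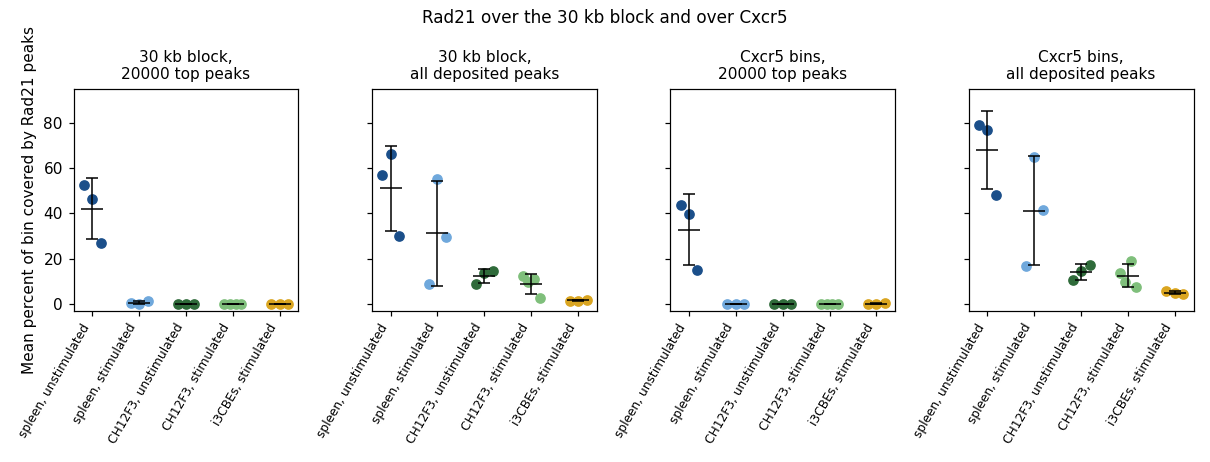
Mean percent of bin covered by Rad21 peaks in the 3 bins of the 30 kb block and in the 2 bins that start in Cxcr5, by top peaks and by all deposited peaks. Points are libraries, horizontal marks the mean and bars the SD; with top peaks only the unstimulated splenic libraries are high, and with all deposited peaks stimulated splenic replicate 2 (55.0% in the block) lies among them.

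In the CH12F3 line neither Cxcr5 nor the block held Rad21 top peaks. All 3 unstimulated and all 4 stimulated CH12F3 libraries had 0 in the 3 bins of the block and in both Cxcr5 bins. The i3CBEs libraries had 0 in the block as well, and 1 of them had a single peak of 51 bp beside the higher coordinate of Cxcr5, at chr9:44335221-44335271. With all deposited peaks the block was covered to 8.91%, 13.5% and 14.6% in unstimulated and 12.5%, 9.78%, 10.9% and 2.49% in stimulated CH12F3, and to 1.45%, 1.43% and 1.89% in i3CBEs, whose lists were the shortest. Unstimulated splenic libraries thus lay above every CH12F3 and i3CBEs library by both measures. Of the 11 bins tested between unstimulated spleen and unstimulated CH12F3 with limma, 5 were called higher in spleen, beside a background of 10.0% of all bins tested, and 0 lower (background 13.8%). The 5 are the Cxcr5 pair and the 3 of the block. The number called higher was 0 with 10000 top peaks and with -log10 q of 5 or more. It was 1, 2 and 1 without unstimulated CH12F3 replicate 1, 2 and 3, and 4, 3 and 7 without unstimulated splenic replicate 1, 2 and 3. The unstimulated splenic libraries chose these bins, so the count supports nothing by itself.

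No change of Rad21 with stimulation was detected in CH12F3 in the bins of the stretch that could be tested. Of 4 bins tested with limma without pairing, 0 passed in either direction, and 0 had an unadjusted p under 0.05. The background of called bins was 0.0% in each direction. None of the 4 was higher or lower without overlap (background 0.914% and 2.28%). The bin of the site beside Cxcr5, at 44310001, had 5.42% ± 0.989 with stimulation (n = 4) and 5.84% ± 0.552 without (n = 3). The bin of the far pair, at 44460001, had 14.8% ± 1.63 and 14.1% ± 0.378. In stimulated splenic replicates 1, 2 and 3 the first of these bins had 4.82%, 14.4% and 7.53% and the second 10.5%, 16.5% and 14.5%, with replicate 2 the highest in both. Between stimulated spleen and stimulated CH12F3, limma called 0 of 5 bins in either direction, with 0 at an unadjusted p under 0.05, beside a background of 2.9% higher and 3.6% lower. The count stayed at 0 without stimulated splenic replicate 2. None of the 5 was higher or lower without overlap (background 8.64% and 7.57%).

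No Rad21 difference between i3CBEs and stimulated CH12F3 passed the test in this stretch, and the sizes varied by bin. At 44460001 they had 8.41%, 8.61% and 9.17%, below the 4 CH12F3 libraries at 17.2%, 13.8%, 14.4% and 13.7%. The groups do not overlap there, but limma's adjusted p was 0.173 for the difference of -6.04 (SE 1.89). It was the only 1 of 4 bins tested to be lower without overlap, where the background was 24.4%, and none was higher (background 0.818%). No bin passed the threshold in either direction (background 0.0138% higher, 0.0644% lower), and 1 had an unadjusted p under 0.05. The median difference over the 4 bins was -0.57 points, beside -1.28 over all bins tested, and the median top peak was narrower in all 3 i3CBEs lists (238 to 281 bp) than in the stimulated CH12F3 lists (300 to 444 bp).

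NIPBL, which the selection rule does not name as lost, was also lower after stimulation over Cxcr5 and the block in spleen, with 1 bin passing the test. That bin, at 44380001 inside the block, had 7.52%, 7.79% and 4.84% of its bases under NIPBL top peaks without stimulation and 0 in all 3 stimulated libraries. The difference was -6.72 points (SE 1.07, limma adjusted p = 0.0337). The stimulated libraries were all below the unstimulated ones. The bin entered the fit through the unstimulated libraries alone, where it was high, so the call supports nothing by itself. The call was lost when any of 4 libraries was left out: with stimulated replicate 1, 2 or 3 or unstimulated replicate 2 left out, the adjusted p was 0.0685, 0.0747, 0.0753 or 0.0566, and with a replicate block it was 0.20. Over all settings tried it ranged from 0.0134 to 0.459.

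Of the 14 bins of the stretch tested for NIPBL in spleen, 1 was called lower, beside a background of 1.24%, and 0 higher, beside 1.74%. Without regard to the test, 6 were lower with no overlap (background 7.65%) and 1 was higher (background 7.48%), the same 7 that had an unadjusted p under 0.05. The median difference over the 14 bins was -2.65 points, beside 0 over all bins tested. The 6 lower bins were the 2 that start in Cxcr5, the 3 of the block and the one at 44410001.

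Over Cxcr5, NIPBL covered 19.5%, 33.9% and 32.6% of the bin at 44330001 without stimulation and 2.82%, 0 and 17.2% with it. The difference of -22.0 points (SE 5.92) was the largest of the 14 bins, with a limma adjusted p of 0.185. At 44320001 the values were 17.6%, 13.3% and 3.29% against 0 in all 3, with an adjusted p of 0.298. Neither bin passed the test, although no stimulated library reached an unstimulated one. The bin at 44320001 too entered the fit through the unstimulated libraries alone. The strongest NIPBL peak in Cxcr5 had a fold enrichment of 18.6, 14.4 and 14.3 without stimulation, each time at the end of the gene nearer the block, between 44333645 and 44335588. With stimulation the strongest had 8.49, 5.36 and 7.54, and in replicate 3 it lay at the opposite end of the gene, at chr9:44315678-44319825.

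Within the block, NIPBL at 44370001 was 22.5%, 13.5% and 15.1% without stimulation against 0, 11.3% and 0 with it (limma adjusted p = 0.257). At 44390001 it was 12.7%, 7.48% and 4.84% against 0.820%, 0 and 0 (adjusted p = 0.172). At 44370001 stimulated replicate 2 was thus close to the unstimulated libraries and the others were at 0. The strongest NIPBL peaks of the block in unstimulated spleen lay at a pair of sites. The first lay at chr9:44378493-44380134, where unstimulated libraries had a fold enrichment of 18.2, 19.7 and 16.0 over 1308 to 1489 bp and ranks of 3154, 2140 and 2522. The second lay at 44389185 to 44389963, inside the bin that passed the test, with 15.1 to 17.2 in the unstimulated libraries. The strongest NIPBL peak of the block had 6.93, 6.38 and 6.66 in the stimulated libraries, all below the unstimulated ones.

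**Figure D4:**
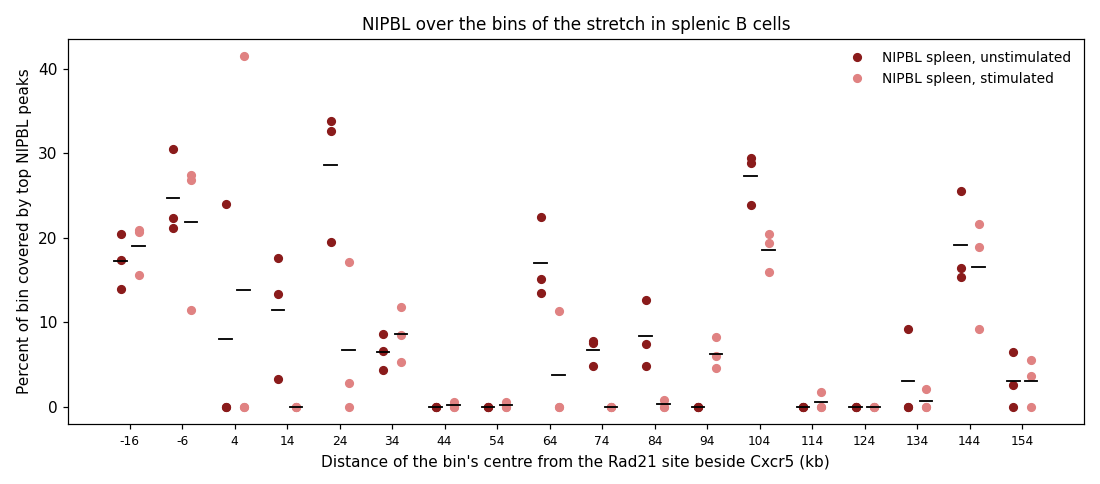
Percent of each 10 kb bin covered by NIPBL top peaks in splenic B cells, against the distance of the bin's centre from the Rad21 site beside Cxcr5 in kb. Points are the 3 unstimulated and 3 stimulated libraries and short lines their means; unstimulated libraries are higher without overlap in 6 bins and stimulated ones in 1.

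The remaining bins gave NIPBL changes of either sign. At 44410001, which holds a site at chr9:44410779-44414132, unstimulated libraries had 23.8%, 28.8% and 29.5% and stimulated ones 19.3%, 20.5% and 15.9%, lower without overlap (limma adjusted p = 0.14). When every deposited peak was counted they had 52.7%, 49.95% and 36.2% against 30.8%, 33.5% and 38.5%, which overlap. At 44400001, the neighbouring bin, unstimulated libraries had 0 and stimulated ones 6.01%, 4.58% and 8.29%, with an adjusted p of 0.0515. The stimulated libraries were higher there, and 3 of 3 held a top peak at chr9:44406769-44407754, a site with no top peak in any other library of either antibody. Its fold enrichment was 6.48 to 7.41. Counting every deposited peak, the bin had 19.6%, 17.0% and 19.6% without stimulation against 15.4%, 20.3% and 24.7% with it, so the groups overlap by that measure.

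By other counts of peaks NIPBL coverage of the 2 bins that start in Cxcr5 was also lower in stimulated spleen without overlap, and that of the block overlapped with 1 of them. With all deposited peaks these Cxcr5 bins were covered to 54.6%, 51.2% and 52.7% without stimulation and 34.9%, 37.3% and 41.7% with it, without overlap. In the block the values were 39.7%, 30.7% and 31.5% against 18.2%, 23.6% and 30.8%, where stimulated replicate 3 overlapped unstimulated replicate 2. Over all 3 bins that overlap Cxcr5 the groups did overlap by top peaks, with 20.4%, 15.7% and 12.0% against 0.940%, 0 and 19.6%, through stimulated replicate 3. They overlapped with -log10 q of 5 or more as well (39.9%, 46.8% and 34.6% against 35.6%, 32.8% and 33.1%) and not with all deposited peaks (56.4%, 54.5% and 52.3% against 45.3%, 47.6% and 51.0%). With all deposited peaks 4 of 18 bins were lower without overlap (background 8.12%) and 2 higher (background 7.49%). With peaks of -log10 q of 5 or more, 5 of 18 were lower (background 17.4%) and 1 higher (background 0.456%). The unstimulated NIPBL lists held more such peaks, 201804 to 426007 against 39531 to 148800 in stimulated spleen, and the part of this in the result was not tested.

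Of 22 NIPBL sites outside Cxcr5 and the block, 7 held top peaks in both states, 7 only without stimulation and 8 only with it, and 13 of the 22 were found in a single library. One site, chr9:44345481-44346732, between the gene and the block, held a top peak in all 10 NIPBL libraries and in no Rad21 library. Its fold enrichment was 11.2 to 11.5 in unstimulated and 8.97 to 9.70 in stimulated spleen, and 8.87 to 16.4 in CH12F3. Sites at chr9:44300394-44303742 and chr9:44290123-44292654, on the other side of Cxcr5, held NIPBL top peaks in all 6 splenic libraries and in 2 of 4 from CH12F3. The latter also held Rad21 top peaks in 11 of 16 libraries, in none of the 3 stimulated splenic ones. A site towards the far pair, chr9:44452795-44455477, held NIPBL top peaks in all 6 splenic libraries and in 1 from CH12F3.

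The overlap of the antibodies was counted against the pooled top peaks of all libraries of the other antibody in the same cells and state. Of the NIPBL top peaks in the stretch, 10 of 19, 7 of 12 and 9 of 15 overlapped an unstimulated Rad21 top peak in the 3 unstimulated libraries. In the stimulated libraries 1 of 12, 0 of 10 and 1 of 13 overlapped a stimulated one. In CH12F3 it was 1 of 9 and 0 of 4 without stimulation and 1 of 3 and 0 of 3 with it. Seen from Rad21, 5 of 10, 7 of 12 and 7 of 18 of its top peaks in unstimulated spleen overlapped NIPBL, and 1 of 5, 1 of 3 and 1 of 6 in stimulated spleen. The rule used these splenic Rad21 libraries. Their top peaks covered 22.95 kb ± 7.96 of the stretch without stimulation and 2.54 kb ± 0.788 with it. A lower overlap in stimulated spleen is thus built into the choice. The share over all top peaks of the genome was not measured, so the shares are a description.

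In CH12F3, the stretch held few NIPBL top peaks. The 2 unstimulated libraries held 9 and 4 top peaks and the stimulated ones 3 each, against 12 to 19 in unstimulated and 10 to 13 in stimulated spleen. Coverage of the stretch by all deposited peaks was 28.0% ± 6.77 without and 26.7% ± 3.84 with stimulation in CH12F3 (n = 2 each), and 30.4% ± 2.68 and 28.9% ± 3.60 in spleen (n = 3 each). With stimulation the bin at 44410001 had 0 in both libraries, against 20.9% and 16.7% without it, so the groups do not overlap. That difference of -18.8 points did not pass limma's unpaired test (adjusted p = 0.363, and 0.0392 with all groups in 1 fit), although same-numbered libraries may be paired. The bin had, by all deposited peaks, 39.4% and 28.0% with stimulation against 35.6% and 33.5% without it, a difference of -0.84 points with overlap. By top peaks it was the only 1 of 5 bins tested to be lower without overlap, where the background was 19.3%, and none was higher (background 9.81%). None of the 5 was called in either direction (background 0.0% each), and 1 had an unadjusted p under 0.05. The median top peak in the stimulated CH12F3 lists was 68 and 51 bp long, against 664 and 129 bp without stimulation, and the part of this in the result was not tested. Whether the change in CH12F3 differs from that in spleen was not tested.

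Between cell types, NIPBL in unstimulated spleen was higher than in unstimulated CH12F3 in 6 of 11 bins tested without overlap (background 13.1%) and lower in none (background 9.1%). These were the 2 Cxcr5 bins, the 3 of the block and the one at 44410001. Limma called 0 of the 11 in either direction (background 0.0%), with 3 at an unadjusted p under 0.05. The largest difference was 27.4 points (SE 5.43, adjusted p = 0.12), at 44330001, where CH12F3 had 1.26% ± 1.77 (n = 2). The median difference was 8.58 points over the 11 bins, beside 0.57 over all bins tested. In both states CH12F3 NIPBL replicate 2 has a list that names a control, whereas the splenic NIPBL lists name none. The part of this in the comparisons of cell types was not tested. After stimulation limma called 2 of 8 bins higher in spleen, beside a background of 20.3%, and 4 were higher without overlap, beside 31.5%. None was lower by either rule (background 1.31% and 8.38%). The called bins were at 44410001 (18.6% ± 2.38 against 0, adjusted p = 0.00709) and 44400001 (6.29% ± 1.87 against 0, adjusted p = 0.0424), and neither lay in Cxcr5 or the block. The call at 44400001 was lost without stimulated splenic replicate 1 (adjusted p = 0.0769) or without stimulated CH12F3 replicate 1 or 2 (0.115 and 0.137). With 40000 top peaks, with all deposited peaks and with -log10 q of 5 or more both calls were lost, at adjusted p of 0.0638, 0.993 and 0.478 for 44410001 and 0.506, 0.813 and 0.483 for 44400001, which was lost too with bins covered in 1 or more libraries (0.0674). At 44410001 spleen exceeded CH12F3 by 0.53 points when every deposited peak was counted. Both calls share the stimulated splenic libraries with the comparison of states above. Both bins entered the fit through spleen alone, where they were high, so the calls support nothing by themselves.

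Bins elsewhere in the genome with the pattern most like that of the block were found by Pearson correlation with its mean covered percent, as a description. Over the 16 Rad21 libraries the 5 closest lay at chr16:96000001-96010000, chr15:91460001-91470000, chr6:108570001-108580000, chr7:121500001-121510000 and chr3:60270001-60280000. Each had 0 in CH12F3 and i3CBEs, a mean of 4.90% to 21.3% in unstimulated spleen and at most 0.177% in stimulated spleen. The block was thus not alone, and 1575 bins reached a correlation of 0.9 or more. Over the 10 NIPBL libraries the closest was chr6:135010001-135020000, with a mean of 8.35% in unstimulated and 0.497% in stimulated spleen and 0 in CH12F3. It was followed by chr11:109280001-109290000, chrX:39500001-39510000, chr1:72260001-72270000 and chr1:71140001-71150000, and 241 bins reached 0.9. The points share the library groups and mostly rest on the 3 unstimulated splenic libraries, so a high correlation says that a bin was high in the same libraries and no more.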

How the data were processed

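Peak lists of 26 NIPBL and Rad21 ChIP-seq libraries were used, 1 list per library. The 5 input samples were not analysed here. Per the submitters' processing notes, Bowtie2, MACS2 and mm9 were used; versions: not given in the sources used here. For each peak the authors deposited a fold enrichment (a ratio), a -log10 p-value, a -log10 q-value and a score of 10 times the -log10 q. These are values of the peak in its own list and served to rank, filter or describe peaks within it. Names inside the deposited lists give a control for all Rad21 lists and for both CH12F3 NIPBL lists of replicate 2; the other NIPBL lists name none.

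Members, bins and sites were chosen with earlier results of these data known. Each list was reduced to its 20000 top peaks by -log10 p, counting only the 21 main chromosomes. The percent of each of 264200 bins of 10 kb under them was fitted in R 4.3.3 by limma 3.58.1 with a mean-variance trend. A fit held only the groups compared and the bins that at least 2 of its libraries covered, and a call needed a Benjamini-Hochberg adjusted p under 0.05. A bin with 0 throughout a group entered through the other group alone, so a call there supports nothing by itself. Splenic Rad21 was not tested for stimulation in the stretch. The fit was first tried on the coverage values shuffled among libraries within each bin, with known changes added. The outcome of that trial is not given here. Read depth is unknown, and no interval that needs it is given. Python 3.11.15, numpy 2.4.6, pandas 2.3.3 and matplotlib 3.10.9 were used otherwise. Bins of the stretch could all be named; merged sites were named where 3 or more libraries of an antibody held a top peak, other sites being chosen after their values were seen; and the 5 bins of closest pattern were named for each antibody. A B cell positioning gene list and cell type markers were planned for use with an mm9 annotation and were not analysed here.

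Stimulated and unstimulated libraries share replicate numbers. Same-numbered Rad21 libraries of CH12F3 deviated together, with correlations of 0.423, 0.651 and 0.376 between deviations from the group means. All were above 0.1, so these numbers were taken to pair the samples, although stimulated replicate 1 correlated more with an unstimulated library of another number. The main fit was unpaired all the same, and the pairing entered only through the replicate block. No pair of libraries shared the start of more than 1.1% of top peaks, so none was a copy. Alternatives were 10000 or 40000 top peaks, all deposited peaks, peaks of -log10 q of 5 or more, bins covered in 1 or more libraries, all groups of an antibody in 1 fit, a replicate block, and leaving out each library.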

Additional observations from a re-analysis of the deposited data

Results flagged for a closer look

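In the group of 4 stimulated CH12F3 Rad21 libraries, 1 library was marked in the bin at 44300001, next to the site beside Cxcr5. It had 0.4% of the bin covered by top peaks and the other 3 had 0. That 0.4% is the edge of its top peak at that site, chr9:44309961-44310606. With 3 equal values any other value is marked, so the mark says nothing about this library. This was 1 of 7 values of the stretch looked at in that group.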

How the results depend on the processing

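The difference of splenic Rad21 over the block, -41.5 points with stimulation, was -4.38 with 10000 top peaks and -19.96 with all deposited peaks, and ran from -48.9 to -36.2 when a library was left out. NIPBL bins lower in stimulated spleen numbered 1, but 3 with 10000 top peaks and 0 with 40000, with all deposited peaks, with -log10 q of 5 or more, with all groups in 1 fit and with a replicate block, and 0 to 2 when a library was left out; bins higher numbered 0, but 1 with bins covered in 1 or more libraries and 0 to 1 with a library left out. Over all bins of the genome, NIPBL calls in spleen were 320 higher and 227 lower, and 0 and 0 with the replicate block. Same-numbered splenic NIPBL libraries did not deviate together (correlations -0.099, -0.018 and -0.038). Nor did those of i3CBEs and CH12F3 (0.107, 0.005 and -0.078), so in both comparisons the samples share only a number. For NIPBL in CH12F3 the correlation was 0.313, above 0.1, so those libraries may be paired. With 2 libraries per group both pairs give that same value, and the main fit was unpaired there too. The replicate block changed no other count in the stretch. NIPBL bins lower in stimulated CH12F3 numbered 1 with all groups in 1 fit. Bins higher in unstimulated spleen than in CH12F3 numbered 5 for Rad21, but 0 with 10000 top peaks and with -log10 q of 5 or more and 1 to 7 with a library left out, and 0 for NIPBL, but 1 with 10000 top peaks and 1 with -log10 q of 5 or more. In stimulated cells they numbered 0 for Rad21, but 1 with all deposited peaks, and 2 for NIPBL, but 1 with 40000 top peaks, 0 with all deposited peaks and with -log10 q of 5 or more, 1 with bins covered in 1 or more libraries and 1 to 4 with a library left out. All deposited peaks merged into 172 sites. The cause was not tested. None of these results changed direction under these alternatives.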
